A study of Homo sapiens with 4 samples.

Results

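The genes described here are 10 members of the Notch pathway, namely the receptors NOTCH1, NOTCH2, NOTCH3 and NOTCH4, the ligands JAG1, JAG2, DLL1 and DLL4, and the targets HES1 and HEY1. They were chosen by name, as the rows of the deposited gene table that carry these symbols, and all 10 were found among 23615 symbols. The levels were measured by RNA-seq of poly-A RNA in 4 libraries made from the human embryonic stem cell line RUES2, 2 biological replicates for each of 2 groups.

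Both groups were unsorted cultures at day 14, and both were given the GSK3 inhibitor CHIR-99021, per the study's methods, and induced under the A100/B5 conditions, which combine a high dose of activin A with a low dose of BMP4. CPC cardiomyocytes came from cardiac progenitor cells by the standard cardiac protocol. ECsXAV cardiomyocytes came from hemogenic endothelial cells, made by a change to a VEGF-containing medium on day 2 and given 2 µM XAV, a tankyrase inhibitor that blocks Wnt/β-catenin signaling, on day 5. The methods add XAV to the cardiac protocol on day 3 in some experiments, at another dose, and do not say whether these CPC cultures received it. The medium, the use of XAV and the origin of the cells therefore differ together and cannot be told apart. Sample names carry another prefix in each group, so the experiment and the group cannot be told apart either.

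Notch receptors are single-pass membrane proteins that bind Jagged or Delta ligands on neighbouring cells. Ligand binding lets ADAM proteases and then γ-secretase cut the receptor, and the freed intracellular domain joins RBPJ and a Mastermind protein on DNA to switch on HES and HEY genes, which encode basic helix-loop-helix repressors. In the embryo the pathway acts in endothelium, in the endocardium and in the patterning of chambers and valves.

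RBPJ binds DNA at sites with the core letters TGGGAA, so the promoters of the target genes were read for this motif. The RefSeq promoter table (GRCh38.p14) spans 250 bases before and 50 bases after each start, and 8 of the 10 genes were read in it. The promoters of DLL1 and HEY1 were not read. None of the 7 receptor and ligand promoters held TGGGAA on either strand. It was present in 6 of 9 HES and HEY promoters (HES1, HES3, HES4, HES5, HEY2 and HEYL), and 4 of these held it at 2 places. Of all 35116 promoters in the table, 24.0% held the motif at least once, and 1333 promoters held it at 2 or more places. HES1 carried both copies on the same strand, at bases -84 and -70 counted from the start. HES5 and HEYL carried their copies on opposite strands. HEY2 also had copies on opposite strands, of which the one farther from the start is shown. Stretches around these matches are printed 5′ to 3′ on the strand of the gene, with TGGGAA, or TTCCCA where it lies on the other strand, in capitals. They are shown so that the motif can be compared between a target that was measured well (HES1, HES4, HEY2) and targets at or near 0 in these cultures (HES5, HEYL).
HES1, bases -250 to -1, chr3:194135898-194136147, plus strand: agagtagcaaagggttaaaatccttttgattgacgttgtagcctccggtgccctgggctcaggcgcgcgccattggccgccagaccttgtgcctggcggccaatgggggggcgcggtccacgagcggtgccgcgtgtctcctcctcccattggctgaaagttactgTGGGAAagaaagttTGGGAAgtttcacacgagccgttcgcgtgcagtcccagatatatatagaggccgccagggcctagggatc
HES4, bases -96 to -51, chr1:1000148-1000193, minus strand: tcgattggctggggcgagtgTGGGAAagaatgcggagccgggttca
HES5, bases -244 to -55, chr1:2530318-2530507, minus strand: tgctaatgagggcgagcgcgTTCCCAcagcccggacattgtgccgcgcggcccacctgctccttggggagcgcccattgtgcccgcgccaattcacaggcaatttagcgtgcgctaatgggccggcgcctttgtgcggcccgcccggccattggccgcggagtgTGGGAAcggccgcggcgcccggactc
HEYL, bases -198 to -74, chr1:39639717-39639841, minus strand: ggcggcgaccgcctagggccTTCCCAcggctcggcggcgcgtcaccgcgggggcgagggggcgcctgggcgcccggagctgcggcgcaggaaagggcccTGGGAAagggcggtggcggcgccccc
HEY2, bases -233 to -188, chr6:125749399-125749444, plus strand: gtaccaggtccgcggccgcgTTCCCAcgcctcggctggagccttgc
A match of letters is not a measured binding site, and its absence says only that these letters are not in the window.

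By the criterion used here, none of the 10 genes differed between the groups. The criterion was an adjusted p under 0.05 in limma together with more than a 2-fold change. Its thresholds are those of the study, which applied them to DESeq tests of read counts, so the calls of the study may differ. Levels were read as FPKM (fragments per kilobase of transcript scaled to the mapped fragments of the library), which are per length and can be compared between genes. Fold changes are differences of log2(FPKM + 1), with ECsXAV subtracted from CPC, so that a negative value is lower in CPC cardiomyocytes. Because of the added 1, the true change of weakly expressed genes is larger than the value given. Values are given for replicate 1 and then replicate 2 of a group. Of the 10 genes, 7 reached a mean of 1 FPKM and were tested with limma over all 12398 such genes, while NOTCH4, DLL1 and DLL4 lay below and have levels only. Across all tested genes 2.15% passed the criterion, 0.71% higher and 1.44% lower in CPC cardiomyocytes. Unadjusted, 3 of the 7 tested genes had a limma p under 0.05 (NOTCH2 and HEY1 lower, JAG1 higher in CPC), beside 18.2% of all tested genes. The FPKM of the groups did not overlap for 5 of the 7, against 49.8% of all tested genes. The median log2 fold change of the 7 was -0.24, with 2 values above and 5 below 0, beside a median of -0.0045 with 6106 above and 6292 below 0 over all tested genes. NOTCH3 is counted among the 5, although its value was 0.00802 after quantile normalization.

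**Figure D1:**
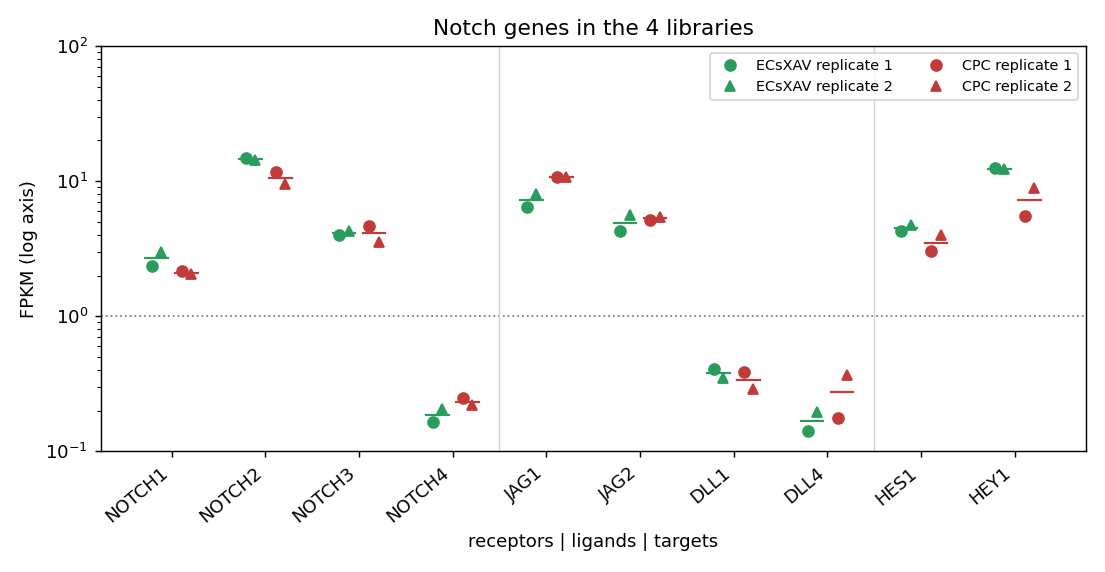
FPKM of the 10 Notch genes on a log axis in the 4 libraries (points) with the group means (lines), and a dotted line at 1 FPKM. NOTCH2, HEY1 and JAG1 lie near 10 FPKM, NOTCH4, DLL1 and DLL4 lie below 0.41 FPKM, and the ECsXAV points lie above the CPC points for NOTCH2 and HEY1 and below them for JAG1.

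Among the receptors, NOTCH2 had the highest level. NOTCH2 (chr1:120454176-120643366, minus strand, GRCh37) measured 14.9 and 14.3 FPKM in ECsXAV and 11.6 and 9.45 FPKM in CPC cardiomyocytes. Both CPC libraries lay below both ECsXAV libraries. Its log2 fold change was -0.44 (SE 0.13, 95% interval -0.79 to -0.10, adjusted p = 0.179 by limma), and the CPC mean was 0.721 of the ECsXAV mean. In bulk cultures such as these, fewer cells that express a gene and less RNA per cell cannot be told apart. NOTCH2 shares near-identical exons with NOTCH2NL, a partial copy that is listed at 1.75, 1.78, 1.46 and 0.702 FPKM in ECsXAV 1, ECsXAV 2, CPC 1 and CPC 2. Reads could have been split between them, so the NOTCH2 level is uncertain to that extent, and NOTCH2NL was 6.91% to 11.2% of the sum of both.

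NOTCH1, which is required for endocardial and endothelial Notch responses, stood well below NOTCH2 in each library. NOTCH1 (chr9:139388885-139440500, minus strand) measured 2.36 and 2.99 FPKM in ECsXAV and 2.15 and 2.04 FPKM in CPC cardiomyocytes. The ranges did not overlap, but the gap between them was smaller than the gap between the ECsXAV replicates. The log2 fold change was -0.24 (SE 0.15, 95% interval -0.63 to 0.15, adjusted p = 0.481 by limma), and it was -0.12 without ECsXAV replicate 2 and -0.37 without ECsXAV replicate 1. NOTCH3, the receptor best known from vascular smooth muscle (chr19:15269849-15311806, minus strand), measured 3.99 and 4.31 FPKM in ECsXAV and 4.66 and 3.56 FPKM in CPC cardiomyocytes. The CPC libraries lay on either side of the ECsXAV pair, and the log2 fold change was -0.02 (SE 0.15, 95% interval -0.42 to 0.38, adjusted p = 0.964 by limma).

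NOTCH4, a receptor largely restricted to endothelium (chr6:32162620-32191844, minus strand), was the receptor with the lowest level. It measured 0.166 and 0.207 FPKM in ECsXAV and 0.246 and 0.219 FPKM in CPC cardiomyocytes, and was not tested. Both CPC libraries lay above both ECsXAV libraries, at a level where few reads lie behind a value. The table lists NOTCH4 at 7 loci, and the transcript table gives all of its signal to 1 of them. How reads with several alignments entered the FPKM is not given in the sources used here.

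The summed FPKM of the 4 receptors was 21.4 and 21.8 in the ECsXAV replicates and 18.6 and 15.3 in the CPC replicates, or 21.6 ± 0.311 against 16.95 ± 2.37 (SD, n = 2 each). NOTCH2 made up 69.5% and 65.6% of this sum in ECsXAV and 62.2% and 61.9% in CPC cardiomyocytes. The share of NOTCH3 was 18.7% and 19.7% in ECsXAV and 25.0% and 23.3% in CPC, while NOTCH1 held 11.0% to 13.7% in all 4 libraries. Receptor RNA was thus mostly NOTCH2 in each library. The sums are a description and were not tested, since they lie outside the fit across genes and an exact permutation test of 2 libraries against 2 cannot give a two-sided p under 0.33.

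Among the ligands, JAG1 had the highest level and JAG2 came next, while both Delta ligands were below 0.41 FPKM. JAG1, the ligand whose mutation causes Alagille syndrome with its right-sided heart defects (chr20:10618332-10654647, minus strand), measured 6.41 and 8.07 FPKM in ECsXAV and 10.7 and 10.7 FPKM in CPC cardiomyocytes. Both CPC libraries lay above both ECsXAV libraries, and the CPC pair lay closer together than the ECsXAV pair. The log2 fold change was 0.51 (SE 0.14, 95% interval 0.15 to 0.87, adjusted p = 0.149 by limma), and the CPC mean was 1.48 times the ECsXAV mean. JAG2 (chr14:105607319-105635161, minus strand) measured 4.28 and 5.59 FPKM in ECsXAV and 5.16 and 5.41 FPKM in CPC cardiomyocytes. The CPC values lay between the ECsXAV values, with a log2 fold change of 0.09 (SE 0.15, 95% interval -0.30 to 0.48, adjusted p = 0.81 by limma). Without ECsXAV replicate 1 the JAG2 value was -0.07.

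DLL1, the Delta ligand known from the presomitic mesoderm (chr6:170591294-170615653, minus strand), measured 0.407 and 0.348 FPKM in ECsXAV and 0.385 and 0.292 FPKM in CPC cardiomyocytes. DLL4, the ligand of arterial endothelium and of sprouting tip cells (chr15:41221538-41231271, plus strand), measured 0.140 and 0.196 FPKM in ECsXAV and 0.178 and 0.370 FPKM in CPC cardiomyocytes. The ranges of the groups overlapped for both genes. At these levels few reads lie behind a value. The absolute depth is unknown, and relative to ECsXAV replicate 1 the other libraries had 50.1% (ECsXAV 2), 86.9% (CPC 1) and 79.8% (CPC 2) of its depth.

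The summed ligand FPKM was 11.3 and 14.2 in the ECsXAV replicates and 16.4 and 16.7 in the CPC replicates, or 12.7 ± 2.09 against 16.6 ± 0.215 (SD, n = 2 each). JAG1 made up 57.0% and 56.8% of it in ECsXAV and 65.2% and 63.7% in CPC cardiomyocytes. JAG2 made up 38.1% and 39.3% in ECsXAV and 31.4% and 32.3% in CPC. Receptor and ligand sums thus differed in opposite directions. The ratio of ligand to receptor FPKM was 0.526 and 0.651 in ECsXAV and 0.883 and 1.10 in CPC, and the ratio of JAG1 to NOTCH2 was 0.431 and 0.564 in ECsXAV and 0.925 and 1.13 in CPC. These are ratios of RNA levels in whole cultures and do not say which cells carry the receptor or the ligand.

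**Figure D2:**
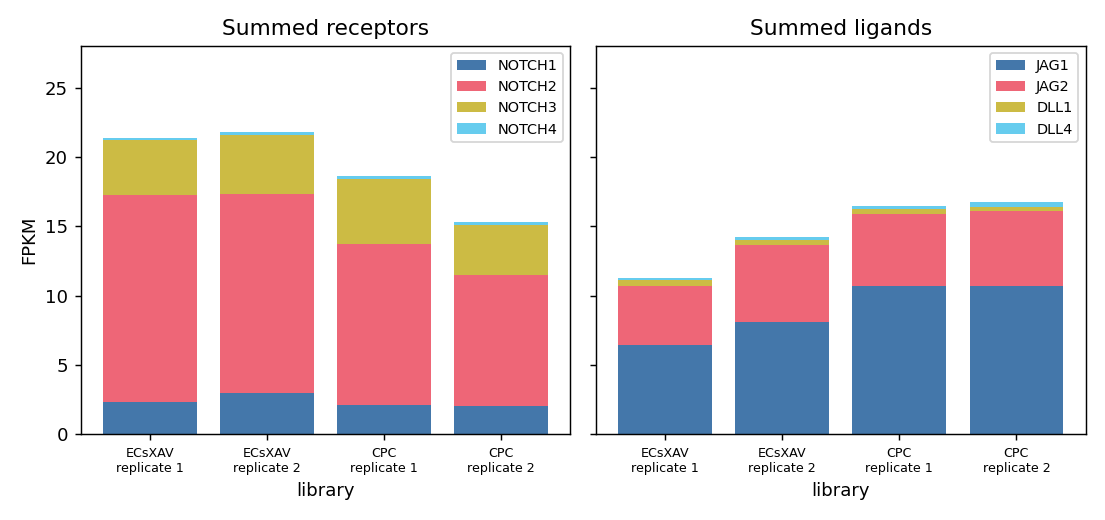
Stacked bars of the FPKM of the 4 receptors (left) and the 4 ligands (right) in each library, from 0 on a shared axis. NOTCH2 fills 61.9% to 69.5% of the receptor bars and JAG1 56.8% to 65.2% of the ligand bars, the receptor bars are taller in the ECsXAV libraries, and the ligand bars are taller in the CPC libraries.

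Of both targets, HEY1 had the higher level and the larger difference. HEY1, a repressor expressed in atrial myocardium, endocardium and arterial endothelium (chr8:80674606-80680092, minus strand), measured 12.4 and 12.2 FPKM in ECsXAV and 5.55 and 8.88 FPKM in CPC cardiomyocytes. Both CPC libraries lay below the ECsXAV pair, and they differed from each other by more than the ECsXAV libraries did. The log2 fold change was -0.73 (SE 0.22, 95% interval -1.29 to -0.17, adjusted p = 0.176 by limma), and the CPC mean was 0.586 of the ECsXAV mean. The value was -1.02 without CPC replicate 2 and -0.43 without CPC replicate 1, so its size depends on which CPC library is used. HES1, a repressor that many signals besides Notch can switch on (chr3:193853937-193856521, plus strand), measured 4.27 and 4.72 FPKM in ECsXAV and 3.02 and 4.001 FPKM in CPC cardiomyocytes. The ranges did not overlap, and the log2 fold change was -0.29 (SE 0.16, 95% interval -0.70 to 0.12, adjusted p = 0.418 by limma). It was -0.13 without CPC replicate 1 and -0.45 without CPC replicate 2. Its promoter, printed above, is the one with 2 copies of TGGGAA on the same strand.

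The 95% intervals of 6 of the 7 tested genes lay within a 2-fold difference in either direction on this scale, and the interval of HEY1 reached beyond it. Over 15 alternative ways to process or fit the data, no Notch gene of the 10 that was tested passed the criterion in any. NOTCH4, DLL1 and DLL4 were tested only in the fit without a filter on low FPKM. The adjusted p of limma was lowest for HEY1, with a range of 0.019 to 0.594 over its alternatives, and ran from 0.0327 to 0.716 for JAG1 and from 0.0378 to 0.699 for NOTCH2. The low end of each came from the fit with a replicate block and without microRNA and small nucleolar RNA genes, where the fold changes stayed under 2.

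**Figure D3:**
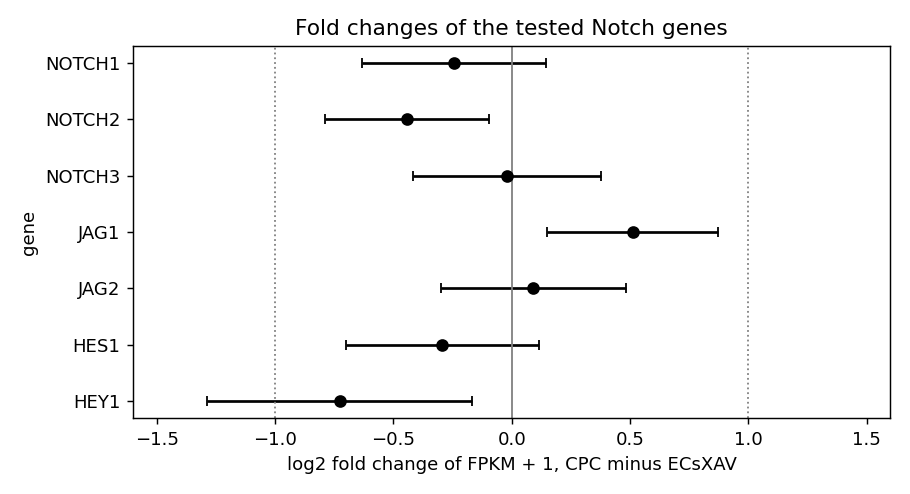
Log2 fold change of FPKM + 1 (CPC minus ECsXAV) of the 7 tested Notch genes with 95% intervals from limma, and dotted lines at a 2-fold difference. The intervals of NOTCH2 and HEY1 lie below 0, that of JAG1 lies above 0, and that of HEY1 alone crosses a dotted line.

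Ordered by mean FPKM, ECsXAV cardiomyocytes had NOTCH2 first, followed by HEY1, JAG1, JAG2, HES1, NOTCH3, NOTCH1, DLL1, NOTCH4 and DLL4. Neighbours whose libraries overlapped were JAG2 and HES1, HES1 and NOTCH3, and NOTCH4 and DLL4. In CPC cardiomyocytes JAG1 and NOTCH2 came first with overlapping libraries, followed by HEY1, JAG2, NOTCH3, HES1, NOTCH1, DLL1, DLL4 and NOTCH4. Here NOTCH3 and HES1, DLL1 and DLL4, and DLL4 and NOTCH4 overlapped as well. Among all tested genes the mean over the 4 libraries stood at percentile 62.9 for NOTCH2, 54.6 for HEY1, 51.7 for JAG1, 33.9 for JAG2, 27.8 for NOTCH3, 26.9 for HES1 and 14.7 for NOTCH1. The Notch genes of these cultures thus lay near or below the middle of the expressed genes, apart from NOTCH2, which lay somewhat above it.

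The transcript table splits HEY1 between 2 transcripts, and the split differed between the groups. Transcript NM_012258 measured 9.59 and 9.27 FPKM in ECsXAV and 5.54 and 8.88 FPKM in CPC cardiomyocytes. Transcript NM_001040708 measured 2.82 and 2.95 FPKM in ECsXAV and 0.00758 and 0.00349 FPKM in CPC cardiomyocytes. It thus made up 22.7% and 24.2% of HEY1 in ECsXAV and 0.137% and 0.0393% in CPC cardiomyocytes. For NM_012258 alone, CPC replicate 2 lay close to the ECsXAV libraries and CPC replicate 1 lay well below them. Of 2615 genes with 2 transcripts and a mean of at least 1 FPKM, 73 (2.79%) had a transcript above 10% in both libraries of one group and below 1% in both of the other, limits that were set after HEY1 had been seen. Splits between transcripts were unstable in these files, since 1383 of the 2615 genes (52.9%) had shares more than 10 points apart between replicates of a group. The 2 longest HEY1 coding sequences in GENCODE, of 924 and 912 bases, differ by 12 bases, and they were not matched to these transcripts. The other genes with a split gave little second transcript, apart from JAG2, whose transcript NM_145159 held 18.7% in CPC replicate 2 and at most 0.0191% in the other libraries.

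The other HES and HEY genes were read from a list of 8, of which 4 were tested, and all 4 had values below 0 (median -0.55), also with quantile normalization and with median-of-ratios scaling. None passed the criterion. HEY2, the repressor of the ventricular compact myocardium (chr6:126068810-126082415, plus strand), had the highest level of the family, at 46.8 and 47.6 FPKM in ECsXAV and 17.6 and 26.2 FPKM in CPC cardiomyocytes. Both CPC libraries lay well below the ECsXAV pair. The log2 fold change was -1.10 (SE 0.20, 95% interval -1.62 to -0.58, adjusted p = 0.0706 by limma), and HEY2 passed the criterion in 2 of 15 alternatives, those without microRNA and small nucleolar RNA genes (adjusted p from 0.00144 to 0.311 over all 15).

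HES6, a family member that counteracts HES1, measured 2.14 and 2.16 FPKM in ECsXAV and 0.716 and 1.11 FPKM in CPC cardiomyocytes, and a log2 fold change of -0.73 (adjusted p = 0.113 by limma). HES4 had 7.11 and 9.24 FPKM in ECsXAV and 4.58 and 7.89 FPKM in CPC, with overlapping libraries. HES7, the oscillator of somite formation, had 3.02 and 4.32 FPKM in ECsXAV and 2.48 and 2.98 FPKM in CPC. The other 4 genes were below 1 FPKM in each library, among them HEYL at 0.116 to 0.161 FPKM, and HES3 and HES5 were listed at 0 throughout.

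HES1, HEY1 and these 8 genes together summed to 75.9 and 80.5 FPKM in ECsXAV and 34.1 and 51.2 FPKM in CPC cardiomyocytes, or 78.2 ± 3.23 against 42.6 ± 12.1 (SD, n = 2 each). HEY2 held 61.7% and 59.1% of the sum in ECsXAV and 51.7% and 51.2% in CPC. HEY1 held 15.2% to 17.4% in all 4 libraries, and HES1 held 5.62% and 5.87% in ECsXAV and 8.84% and 7.82% in CPC. HEY2 was 3.77 and 3.89 times as high as HEY1 in ECsXAV and 3.18 and 2.95 times as high in CPC.

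**Figure D4:**
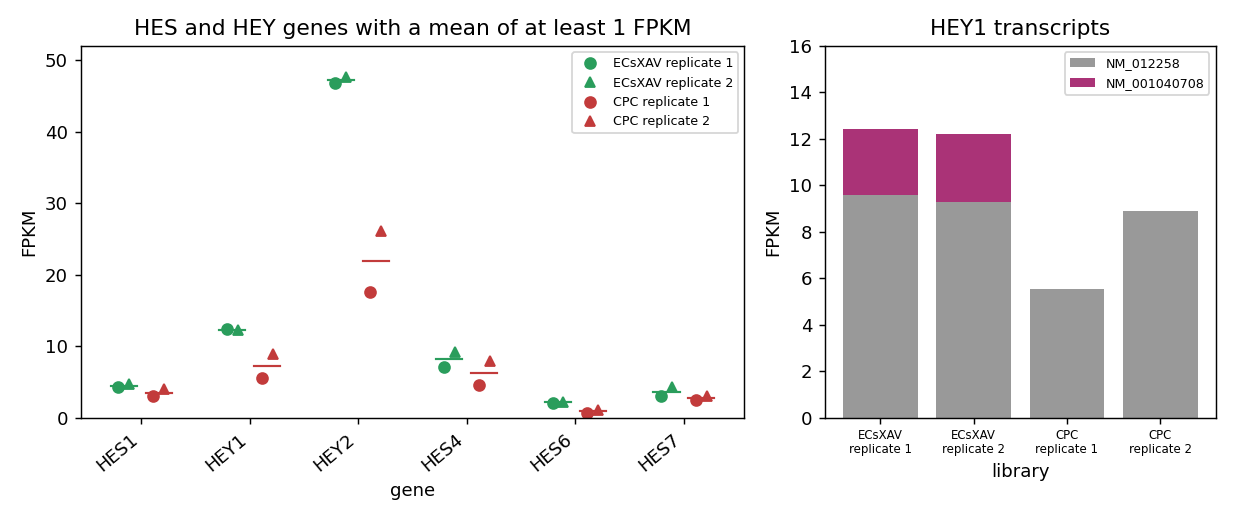
Left, FPKM of the HES and HEY genes with a mean of at least 1 FPKM in the 4 libraries (points) with group means (lines), and right, FPKM of both HEY1 transcripts per library as stacked bars from 0. HEY2 lies at 46.8 and 47.6 FPKM in ECsXAV and at 17.6 and 26.2 FPKM in CPC, and the NM_001040708 part of the HEY1 bar (2.82 and 2.95 FPKM) is visible in the ECsXAV libraries only.

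The rest of the pathway was read from 62 genes in 8 groups, of which 50 were tested. One passed the criterion, DLK1 (lower in CPC), and none was higher, beside 2.15% of all tested genes. An unadjusted limma p under 0.05 was found for 9 of the 50 (5 higher, 4 lower), beside 18.2% of all tested genes. Their median log2 fold change was 0.09, with 31 values above and 19 below 0. The groups did not overlap for 25 of the 50, beside 49.8% of all tested genes. All 3 counts are thus near the background.

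DLK1, a noncanonical ligand that lacks the domain needed to activate Notch and is imprinted (chr14:101192042-101204561, plus strand), measured 2.73 and 4.67 FPKM in ECsXAV and 0.300 and 0.489 FPKM in CPC cardiomyocytes. Its log2 fold change was -1.73 (SE 0.25, adjusted p = 0.0439 by limma). On this scale the added 1 sets much of the size, since the value was -2.92 with a pseudocount of 0.1 and the CPC mean was 0.107 of the ECsXAV mean. The fold change ran from -2.03 to -1.42 when 1 library was left out, and the call was lost without ECsXAV replicate 2 (-1.42, adjusted p = 0.0634 by limma), without CPC replicate 1 (-1.63, adjusted p = 0.174) and without CPC replicate 2 (-1.82, adjusted p = 0.156). With all 4 libraries it was also lost without a filter (adjusted p = 0.0929), with quantile normalization (0.0676) and with the replicate block (0.0518), and the adjusted p ran from 0.000577 to 0.174 over 14 alternatives.

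Of 9 genes for receptor cleavage all were tested, with 6 values above and 3 below 0 and a median of 0.13. The one farthest from 0 was NCSTN, a subunit of γ-secretase, with 26.3 and 27.5 FPKM in ECsXAV and 35.6 and 40.1 FPKM in CPC (log2 fold change 0.47, SE 0.11, adjusted p = 0.122 by limma). For receptor glycosylation, 3 of 5 genes were tested, 2 above and 1 below 0 (median 0.02, and -0.04 with 1 above and 2 below without ECsXAV replicate 1), led by POGLUT1, which adds glucose to the receptor (0.44, SE 0.15, adjusted p = 0.234 by limma). The ubiquitin ligases that drive ligand endocytosis had 3 tested genes of 4, all below 0 (median -0.25), led by NEURL1B (-0.47, SE 0.13, adjusted p = 0.153 by limma). The direction of this group was mixed, with 1 above and 2 below 0, without ECsXAV replicate 2 or without CPC replicate 2.

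In the nucleus, RBPJ, the DNA-binding partner of the receptor domain, had 23.5 and 22.5 FPKM in ECsXAV and 25.4 and 23.2 FPKM in CPC (log2 fold change 0.08, adjusted p = 0.778 by limma). All 9 genes of the nuclear complex were tested and had values above 0 (median 0.13), a count that was 8 without ECsXAV replicate 1 and 7 without CPC replicate 1. MAML3, a Mastermind coactivator, was farthest from 0, with 3.39 and 3.43 FPKM in ECsXAV and 6.30 and 5.04 FPKM in CPC (0.59, SE 0.14, adjusted p = 0.122 by limma). Of the corepressors 12 of 13 were tested, 8 above and 4 below 0 (median 0.09), led by TLE3, a Groucho-type corepressor used by HES proteins (0.38, SE 0.15, adjusted p = 0.291 by limma). Of the receptor turnover genes 8 of 10 were tested, 5 above and 3 below 0 (median 0.07, and -0.07 with 3 above and 5 below without ECsXAV replicate 1), led by DTX3, a Deltex protein (0.35, SE 0.11, adjusted p = 0.186 by limma). NRARP, a feedback inhibitor of the pathway that is itself a Notch target, was named after its values were seen. It had 1.31 and 1.71 FPKM in ECsXAV and 1.42 and 1.71 FPKM in CPC, with a log2 fold change of 0.03 (95% interval -0.39 to 0.46, adjusted p = 0.939 by limma), and its libraries overlapped between the groups.

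**Figure D5:**
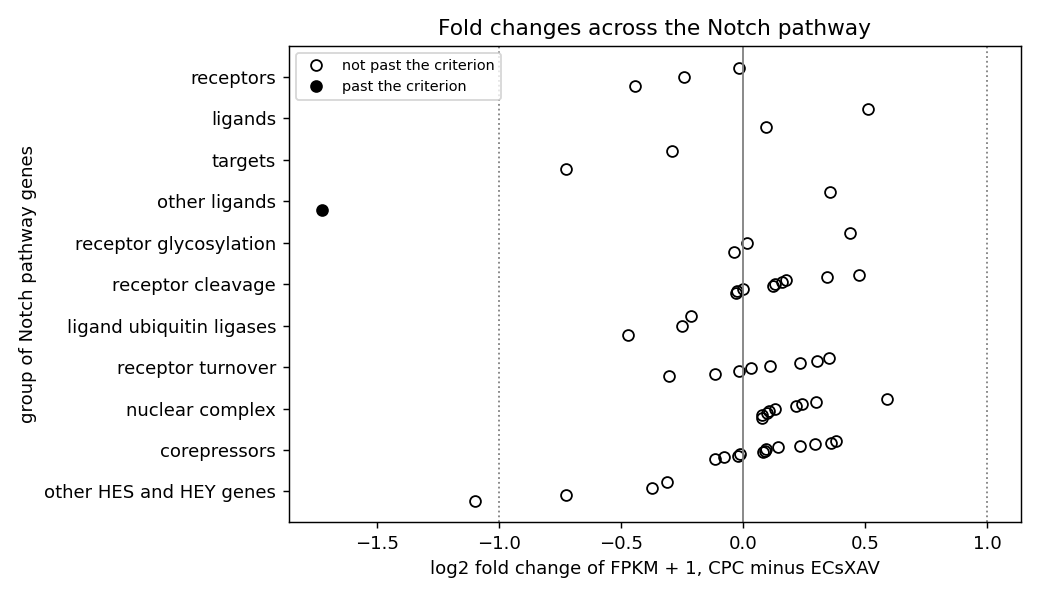
Log2 fold change of FPKM + 1 (CPC minus ECsXAV) of the tested Notch pathway genes by group, 1 point per gene, with dotted lines at a 2-fold difference. DLK1 (-1.73, filled) is the one gene past the criterion, all 6 tested HES and HEY genes (targets and other HES and HEY genes) lie below 0, and the 9 genes of the nuclear complex lie just above 0 up to 0.59.

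Markers of cell types that use Notch were read beside these results, and their part in the results was not tested. Of all tested genes 0.71% passed the criterion as higher and 1.44% as lower in CPC, beside which the counts of marker genes are to be read. All 8 cardiomyocyte markers were expressed in each library, with TNNT2 at 2309 to 2988 FPKM. MYH6 passed the criterion as higher and MYBPC3 as lower in CPC. The 14 endothelial markers summed to 29.3 and 31.4 FPKM in ECsXAV and 27.7 and 25.1 FPKM in CPC, and none of the 4 tested passed. EGFL7 and KDR made up most of the sum, while the defining markers PECAM1 (0.0425 to 0.233 FPKM), CDH5 (0.649 to 1.49 FPKM) and VWF (0 to 0.0209 FPKM) were low in both groups. The mean was lower in CPC for 11 of the 14. Among the 10 Notch genes it was lower for NOTCH1, NOTCH2, NOTCH3, DLL1, HES1 and HEY1, as it was for HEY2. It was higher for NOTCH4 (1.25 times the ECsXAV mean), DLL4 (1.63), JAG1 (1.48) and JAG2 (1.07). The groups did not overlap for 9 of the 14 (8 lower and 1 higher in CPC), beside 49.8% of all tested genes. Of these 9, 3 were tested, and the rest lay below a mean of 1 FPKM. Among the 11, CDH5 had a CPC mean of 0.569 of the ECsXAV mean, ESAM 0.471 and SOX18 0.258, of which only CDH5 was tested. EGFL7, also tested, had 0.796 and TIE1 had 0.857, and the rest of the 11 lay below both of these. The other markers of the 14, higher in CPC, were EMCN (1.63 times the ECsXAV mean), KDR (1.16) and CLDN5 (1.46, at most 0.0428 FPKM). Of the 4 tested markers, 2 had values above and 2 below 0 (median -0.05). The 7 mural and smooth muscle markers summed to 325 and 288 FPKM in ECsXAV and 162 and 183 FPKM in CPC, most of which was TAGLN, CNN1 and ACTA2. The sums of the endothelial, mural, neural and hepatic lists were all lower in CPC, as were the receptor sum and HEY1. The paraxial mesoderm and myogenic sum was higher in CPC, and so was the ligand sum, which was mostly JAG1. Whether any of these differences go together was not tested. In the mural and smooth muscle list 1 of 5 tested genes passed, TAGLN, at 116 and 108 FPKM in ECsXAV and 15.8 and 22.6 FPKM in CPC. ACTA2 lay between 57.5 and 80.5 FPKM in all libraries. MYH11, the myosin that defines mature smooth muscle, was below 1 FPKM and higher in CPC, at 0.0844 and 0.154 FPKM in ECsXAV and 0.351 and 0.433 FPKM in CPC.

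The 12 paraxial mesoderm and myogenic markers, from tissue in which DLL1 and HES7 are active, summed to 1.95 and 3.45 FPKM in ECsXAV and 10.1 and 8.12 FPKM in CPC. DLL1 and HES7 themselves were lower in CPC, with means of 0.896 and 0.745 of the ECsXAV means. Most of the CPC sum was UNCX, the one of 2 tested genes to pass, at 6.27 and 4.71 FPKM, and 3 of the 12 were at 0 in all libraries. The 7 neural markers summed to 3.99 and 3.81 FPKM in ECsXAV and 1.05 and 1.17 FPKM in CPC, which was mostly TUBB3, the one gene tested, which passed as lower in CPC. The 7 hepatic and endoderm markers summed to 36.4 and 30.2 FPKM in ECsXAV and 16.2 and 18.3 FPKM in CPC, with 2 of 3 tested genes, AFP and TTR, lower in CPC by the criterion.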

How the data were processed

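The authors deposited FPKM per gene and per transcript, which they had computed with Cufflinks and UCSC gene annotations. The submitters' processing notes name TopHat 1.3.3, Cufflinks and hg19, while the methods name Gsnap for read counts, which were not used here. No scaling between libraries is stated. The labels gave the groups and the replicate numbers. Where a symbol had several loci, the highest value among its loci was kept in each library. The 12398 genes that averaged 1 FPKM or more were tested on log2(FPKM + 1) with limma (version 3.58.1, R 4.3.3), with a variance prior that follows the mean level and adjustment by Benjamini-Hochberg over all of them. The steps were first tested on simulated data. The criterion was an adjusted p below 0.05 with more than a 2-fold change. Relative depth was the modal ratio of FPKM between libraries for genes at 0.005 to 0.1 FPKM. Python 3.11.15 was used with pandas 2.3.3 and NumPy 2.4.6 for tables, and with matplotlib 3.10.9 for plots. Coordinates came from GENCODE release 44 lifted to GRCh37 (hg19), and promoters from RefSeq.

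The Notch genes, the pathway and marker lists and the tests were chosen with earlier results of these data known. Named beside the 10 genes are pathway genes past the criterion, the gene farthest from 0 in each pathway group, and the genes leading a marker sum. RBPJ, NRARP, the other HES genes and the marker genes that passed, or that define a cell type, were named after their values were seen. Alternatives were a pseudocount of 0.1, a filter at a mean FPKM of 5 or none, scaling by quantiles or by the median of ratios, a variance prior with no trend, a block for the replicate number, leaving out microRNA and small nucleolar RNA genes with and without the block, summed loci, summed transcripts, and each library left out in turn.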

Additional observations from a re-analysis of the deposited data

How the results depend on the processing

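None of the 10 Notch genes passed the criterion in any of 15 alternatives, 11 with all libraries and 4 leaving out 1. NOTCH4, DLL1 and DLL4 were tested only in the fit without a filter, and could not pass in the others. Of 102 values of the tested Notch genes, 98 kept their direction and 4 reversed. NOTCH3 was 0.00802 with quantile normalization and ran from -0.17 to 0.14 when 1 library was left out (0.03 without ECsXAV replicate 2 and 0.14 without CPC replicate 2). JAG2 ran from -0.0674 (without ECsXAV replicate 1) to 0.25. The log2 ratio of summed receptor FPKM ran from -0.50 (without CPC replicate 1) to -0.21, and that of summed ligand FPKM from 0.22 to 0.56 (without ECsXAV replicate 2). The median of all tested genes moved by less than 0.1 in each setting.

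Over all genes, 266 passed (88 higher and 178 lower in CPC, 33.1% higher). The count was 20 without a filter (60% higher), 152 with a filter at a mean of 5 FPKM, and 50 to 118 with 1 library left out (100 without ECsXAV replicate 1, 118 without ECsXAV replicate 2, 50 without CPC replicate 1, 72 without CPC replicate 2). The lone library of a group is then assumed to vary like the others, and 78% and 77.8% of calls were higher in CPC without CPC replicates 1 and 2. Other pathway genes past the criterion numbered 1, and 0 without a filter, with a filter at 5 FPKM and with quantile normalization, 2 (DLK1 and HEY2) without microRNA and small nucleolar RNA genes, and 0 to 1 with 1 library left out. The number of libraries or of tested genes also differs in some of these settings, and what changed the counts was not tested.

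With the replicate number as a replicate block, 176 genes passed over all genes (59 higher, 117 lower), with 0 of the Notch genes and 0 other pathway genes, and DLK1 had an adjusted p of 0.0518 in limma. With the block and without microRNA and small nucleolar RNA genes, 2 other pathway genes passed. The numbers are shared, but nothing in the sources pairs the cultures. Differences between replicates 1 and 2 in one group and in the other had a Spearman correlation of 0.356 and a Pearson correlation of 0.0349 across 12398 genes, which are not independent.

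Absolute depth is unknown, so few-read values such as those of NOTCH4, DLL1 and DLL4 carry no interval. With 2 libraries per group, each p-value rests on a variance estimate that limma borrows from other genes.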

Other observations

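The split of the second transcript of other pathway genes turned over between replicates. HES6 was given to transcript NM_001142853 at 99.3% and 97.6% in replicate 1 of ECsXAV and CPC, and at 0.0363% and 0.0279% in replicate 2 of each. HES7 was given to transcript NM_032580 at 99.9% in CPC replicate 1 and at 0.095% to 1.49% in the other libraries. DLL3, a ligand-like protein of somite formation, was given to transcript NM_203486 at 78.6% in CPC replicate 1, 14.7% in CPC replicate 2 and 0.0465% to 1.46% in the ECsXAV libraries. Of the 2615 genes with 2 transcripts, 212 (8.11%) had shares more than 50 points apart between replicates of a group. The sum over transcripts was steadier, with HES6 at 2.14 and 2.16 FPKM in the ECsXAV replicates.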
